A study of Arabidopsis thaliana with 6 samples.

Results

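The DNA methylation of endosperm that had inherited a mutant allele of NRPD1 from the father was compared with that of wild-type (WT) endosperm, region by region. All regions on chromosomes 1 to 5 that were listed as differentially methylated (DMRs) between these genotypes were taken, which gave 707 DMRs in the CG context and 2056 in the CHH context, in which the cytosine is followed by 2 bases other than G, or 2763 of the 8950 DMRs in the 6 lists of the series. WT endosperm came from Ler mothers crossed to Col fathers, and pat nrpd1+/- endosperm from Ler mothers crossed to Col-0 nrpd1-/- fathers, so that both were hybrids of the same parental accessions and had a maternal NRPD1 allele that was intact. Endosperm was dissected at 7 days after pollination, with 2 replicates per genotype. The replicates were pooled before the genotypes were compared, so that each DMR has 1 value, the difference pat nrpd1+/- minus WT in percentage points of methylation. Regions that differed between the replicates of a genotype had been left out by the authors. No values per replicate are listed, so the spread of a difference between replicates is unknown. No counts of reads are in the lists, so the depth behind each value is unknown. The lists hold no expression values either, and the loss of paternal NRPD1 could not be checked in them.

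NRPD1 forms the catalytic core of the plant-specific polymerase Pol IV, which starts the pathway of RNA-directed DNA methylation. Pol IV transcripts are made double-stranded by RDR2 and cut by DCL3 into small interfering RNAs, which, bound to Argonaute proteins at Pol V transcripts, bring the methyltransferase DRM2 to the DNA. CHH methylation has no symmetric partner on the other strand and has to be placed anew after each replication, by this pathway or by CMT2, whereas CG methylation is copied by MET1. In endosperm the maternal genome outnumbers the paternal one, and it is demethylated at many sites by the glycosylase DEMETER before fertilization.

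The strongest regions show what was measured, and their sequences are given from the TAIR10.1 assembly of RefSeq, forward strand, 5′ to 3′. In the first pair, capitals mark CG dinucleotides. The region with the largest listed CG loss, -94.3 points, was 500 bp long and lay in a coding exon of AT5G27247, an uncharacterized gene, where it overlapped the pseudogene AT5G27250. Its middle part is chr5:9601401-9601700, with 5 CG sites. The region with the largest listed CG gain, 96.6 points, was 600 bp long and lay 852 bp downstream of PHYC, which encodes the photoreceptor phytochrome C. Its middle part, chr5:14012851-14013150, has 12 CG sites.
CG loss: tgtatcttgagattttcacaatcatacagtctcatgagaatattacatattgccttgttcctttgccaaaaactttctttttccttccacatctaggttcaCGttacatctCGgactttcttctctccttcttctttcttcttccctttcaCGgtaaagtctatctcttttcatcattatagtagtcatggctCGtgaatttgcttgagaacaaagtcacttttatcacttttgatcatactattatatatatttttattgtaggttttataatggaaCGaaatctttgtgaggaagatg
CG gain: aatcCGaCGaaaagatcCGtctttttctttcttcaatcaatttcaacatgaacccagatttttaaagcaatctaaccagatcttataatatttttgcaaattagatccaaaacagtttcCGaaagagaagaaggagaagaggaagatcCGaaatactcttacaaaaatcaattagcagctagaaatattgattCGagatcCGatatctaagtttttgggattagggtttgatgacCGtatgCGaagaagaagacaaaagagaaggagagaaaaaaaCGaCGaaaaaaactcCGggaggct

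In the CHH pair, capitals mark cytosines in the CHH context on either strand, a C for the forward strand and a G for the reverse strand. The largest listed CHH loss, -67.9 points, was a single window 254 bp upstream of ZDS, the gene of zeta-carotene desaturase in the carotenoid pathway. This window, chr3:1341901-1342200, has 50 CHH cytosines and 0 CG sites, and only 18% of its bases are G or C. The largest listed CHH gain, 78.6 points, was 400 bp long and lay 479 bp upstream of a pseudogene, AT1G36305. Its middle part, chr1:13659851-13660150, has 90 CHH cytosines and 8 CG sites.
CHH loss: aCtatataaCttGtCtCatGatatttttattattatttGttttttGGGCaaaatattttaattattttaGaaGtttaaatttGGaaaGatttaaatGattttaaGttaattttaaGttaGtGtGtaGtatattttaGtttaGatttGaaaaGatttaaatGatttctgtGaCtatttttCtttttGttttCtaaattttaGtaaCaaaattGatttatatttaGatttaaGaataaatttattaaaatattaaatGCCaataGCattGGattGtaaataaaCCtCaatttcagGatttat
CHH gain: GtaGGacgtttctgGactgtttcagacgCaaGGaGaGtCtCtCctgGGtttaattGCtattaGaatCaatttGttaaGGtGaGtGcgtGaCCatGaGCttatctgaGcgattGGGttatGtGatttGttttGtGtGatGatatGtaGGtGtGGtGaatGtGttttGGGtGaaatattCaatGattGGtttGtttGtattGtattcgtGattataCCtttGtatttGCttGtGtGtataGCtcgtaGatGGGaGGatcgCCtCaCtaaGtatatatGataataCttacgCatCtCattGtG

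The last set shows regions at which both contexts were listed, and capitals again mark CG dinucleotides. At chr1:21741901-21742200, in the RNA gene AT1G09705, the CG difference was -82.7 points and the CHH difference -13.8 points. At chr3:10441251-10441550, upstream of UMAMIT41, a transporter gene, they were -74.2 and -17.5 points, and a stretch of 44 bases that starts at position 109 of this sequence is repeated at position 224. At chr1:21105001-21105300, 944 bp downstream of AT1G56385, a gene of the self-incompatibility protein S1 family, the contexts went opposite ways, with a CG difference of -47.0 points and a CHH difference of 35.1 points.
Both lower, AT1G09705: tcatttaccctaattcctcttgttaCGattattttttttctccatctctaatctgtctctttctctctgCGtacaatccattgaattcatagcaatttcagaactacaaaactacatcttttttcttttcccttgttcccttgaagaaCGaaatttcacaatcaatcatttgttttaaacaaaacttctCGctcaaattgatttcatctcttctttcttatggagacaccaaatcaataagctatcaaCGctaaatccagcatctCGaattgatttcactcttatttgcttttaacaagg
Both lower, UMAMIT41 upstream: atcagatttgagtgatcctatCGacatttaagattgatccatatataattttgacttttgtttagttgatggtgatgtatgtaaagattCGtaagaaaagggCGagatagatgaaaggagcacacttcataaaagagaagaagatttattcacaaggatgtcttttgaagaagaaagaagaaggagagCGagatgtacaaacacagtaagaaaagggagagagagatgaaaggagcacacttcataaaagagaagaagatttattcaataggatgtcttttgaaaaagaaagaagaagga
CG lower and CHH higher, AT1G56385 downstream: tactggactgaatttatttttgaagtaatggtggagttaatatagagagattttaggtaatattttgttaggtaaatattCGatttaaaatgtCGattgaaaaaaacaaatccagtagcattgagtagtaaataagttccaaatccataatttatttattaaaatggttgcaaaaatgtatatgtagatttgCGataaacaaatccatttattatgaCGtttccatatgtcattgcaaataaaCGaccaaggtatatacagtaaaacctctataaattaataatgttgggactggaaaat

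The size of a difference has to be read with the length of its region. DMRs of a single 300-bp window made up 59.5% of the CG list and 55.0% of the CHH list, and the others had been merged from overlapping windows. Since the windows advance by 100 bp, the windows that share one 100-bp step span 500 bp, and only 24 CG and 40 CHH DMRs were longer than that. Among single-window DMRs, losses and gains were of like size, with medians of -36.1 and 35.4 points for CG and of -13.5 and 13.3 points for CHH. Gains grew with length, to a median of 46.6 points at 500 bp and 49.5 points above it for CG, and to 21.7 and 30.9 points for CHH. Losses did not grow in this way, with medians of -36.8 and -35.7 points for CG and -13.1 and -15.6 points for CHH. The same contrast was seen in both lists that involve mat nrpd1+/-, whichever genotype was subtracted. At 500 bp, the median CHH gain and loss were 22.3 and -13.3 points for mat nrpd1+/- minus WT and 21.1 and -14.5 points for mat nrpd1+/- minus pat nrpd1+/-.

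Merged regions that 2 lists give with the same coordinates were used as a check of the value itself. At 71 merged CHH regions, methylation was higher in pat nrpd1+/- than in both other genotypes. The listed difference was a gain against WT, with a median size of 25.3 points, and a loss in the comparison with mat nrpd1+/-, with a median size of 14.1 points, and the size against WT was the larger one in 67 regions and the smaller one in 4. At the 37 merged CHH regions that were lower in pat nrpd1+/- than in both others, the order was the other way, with the size against WT larger in 12 and smaller in 25. For single-window CHH regions higher in pat nrpd1+/-, the medians were 15.02 and 13.8 points. The listed value of a merged region thus behaved like the largest signed difference among its windows, which is the strongest window of a gain and the weakest of a loss. How it was taken is not given in the sources used here. The direction of a region does not depend on it where all its windows differ the same way. Whether some merged regions hold windows of both directions is not known, and such a region would be listed as a gain. The listed sizes of merged gains and merged losses are not on one footing, also where single regions are named below, and a rank by size favours merged gains.

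The share of hypomethylated DMRs changed with the size of the difference in merged regions. Of the merged CHH DMRs between 10 and 15 points, 74.0% were hypomethylated (311 of 420, exact 95% interval 69.6% to 78.2%), and of those at 30 points or more, 25.2% (34 of 135, interval 18.1% to 33.4%). Among single-window CHH DMRs the share was 55.5% (386 of 695, interval 51.8% to 59.3%) in the lower class and 57.8% (48 of 83, interval 46.5% to 68.6%) in the upper class. For CG, the merged regions went from 79.1% hypomethylated between 30 and 40 points to 47.4% at 50 points or more, and the single windows from 53.2% to 66.0%. At the stricter difference of 15 points, 45.7% of all CHH DMRs were hypomethylated, below the 54.8% of the full list, while the share among single windows was 55.2% (240 of 435), against 55.4% without the stricter limit. These intervals cover the counting of regions only.

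**Figure D1:**
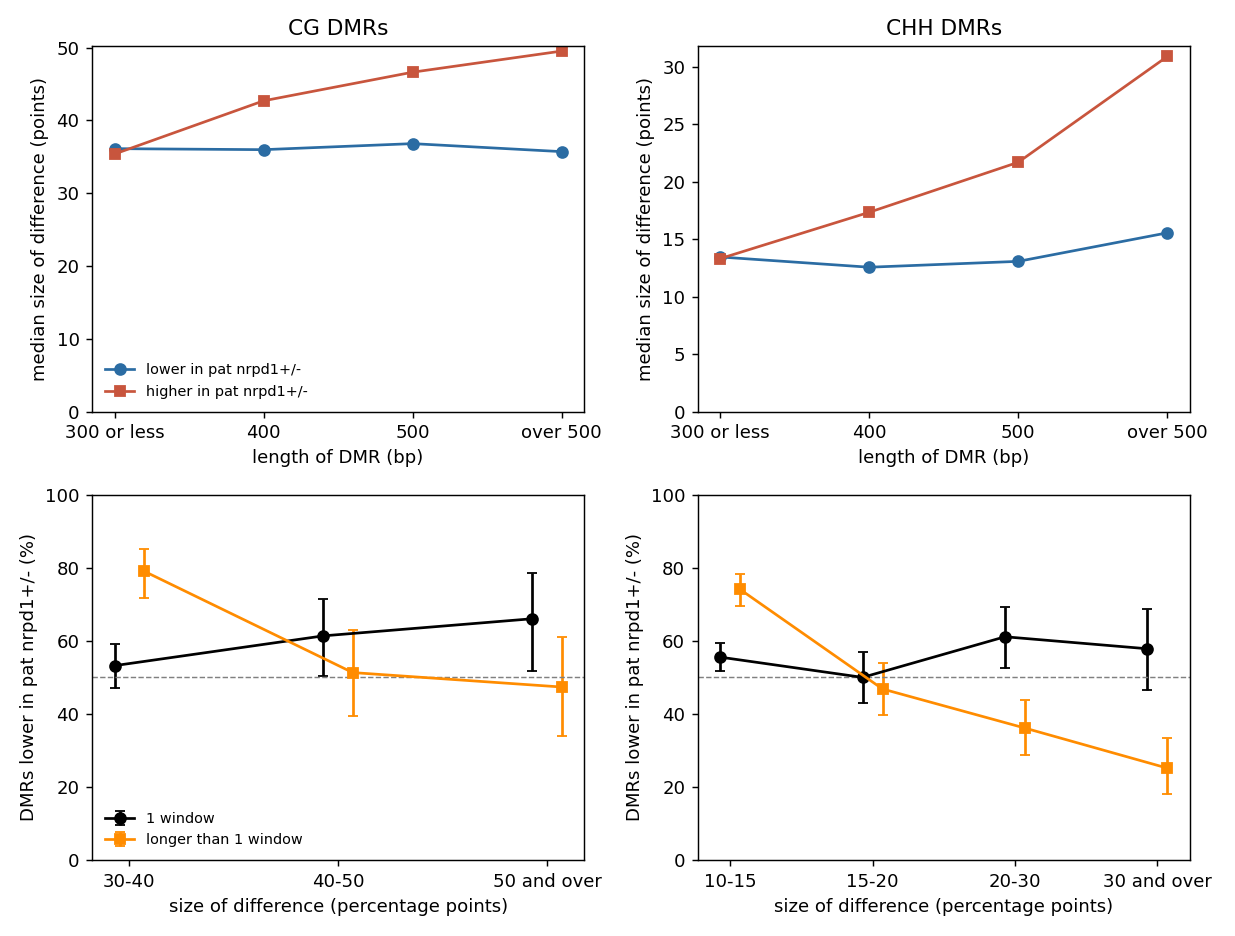
Median size of the difference by length of the DMR (upper panels, percentage points) and share of DMRs hypomethylated in pat nrpd1+/- by size of the difference (lower panels, percent, bars are exact 95% intervals over regions), for CG at the left and CHH at the right. Gains and losses start from the same median at 300 bp and part with length, and the hypomethylated share falls with size in merged regions only, from 74.0% to 25.2% for CHH.

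DMRs of both contexts were spread over all 5 chromosomes, and were denser where genes are sparse. Per Mb of retained sequence, by which is meant sequence that passed the filters on maternal reads and on variable regions, the chromosomes held between 5.82 (chromosome 1) and 7.19 (chromosome 3) CG DMRs, and between 18.3 (chromosome 1) and 22.6 (chromosome 2) CHH DMRs. The hypomethylated share lay between 57.0% and 63.5% for CG and between 53.3% and 56.4% for CHH, so that every chromosome had more losses than gains in both contexts. Hypomethylated CG DMRs took up 0.146% of the retained 100-bp steps and hypermethylated ones 0.0923%, together 0.238%. For CHH, these values were 0.396%, 0.328% and 0.724%.

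Of 240 bins of 500 kb, 51 had less than 40% of their bases in protein-coding genes. These gene-poor bins held 11.0 CG DMRs per Mb, against 5.57 per Mb elsewhere, and 41.5 CHH DMRs per Mb, against 15.1. The CHH ratio was 2.97 for losses and 2.52 for gains, and the CG ratio was 1.97 for losses and 1.98 for gains. The contexts differed in where the density peaked. In bins within 1 Mb of the middle of the gene-poorest stretch of each chromosome, CHH losses stood at 25.4 per Mb, and they declined at each step outward to 5.86 per Mb beyond 12 Mb. CG losses stood at 4.82 per Mb within 1 Mb and at 7.14 per Mb between 2 and 4 Mb, and fell to 2.20 per Mb beyond 12 Mb. These are counts over few regions, 30 CG losses in the innermost class and 129 at 2 to 4 Mb. The 500-kb bin with the most CHH DMRs held 32, on chromosome 3 from base 11000001, with 20 losses and 12 gains, and the bin with the most CG DMRs held 16, also on chromosome 3, from base 15500001. The median bin held 7 CHH and 2.5 CG DMRs.

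**Figure D2:**
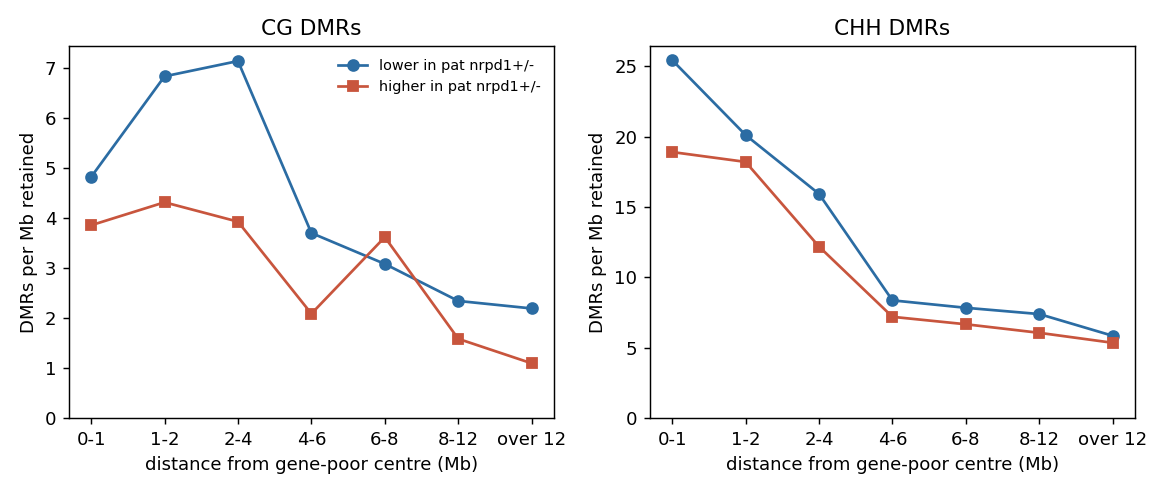
DMRs per Mb of retained sequence (vertical axis) in 500-kb bins grouped by distance from the middle of the gene-poorest 1 Mb of the chromosome (horizontal axis, Mb), for losses and gains in pat nrpd1+/-. CHH densities fall outward from 25.4 losses per Mb, and CG losses are densest between 2 and 4 Mb, at 7.14 per Mb.

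The positions of the DMRs around protein-coding genes differed between CG gains and CG losses. Of the CG gains, 58.5% touched coding sequence (165 of 282, exact 95% interval 52.5% to 64.3%), and of the CG losses 33.4% (142 of 425, interval 28.9% to 38.1%), with 49.75% of all retained 300-bp windows in between. Of the CG DMRs that touched coding sequence, 46.3% were losses (interval 40.6% to 52.0%), and of those that did not, 70.8% (283 of 400, interval 66.0% to 75.2%). More losses than gains were thus found in the CG list only outside coding sequence. The share was highest in DMRs outside genes but within 1 kb of one, at 76.9% (123 of 160, interval 69.6% to 83.2%). The contrast was larger outside the gene-poor bins, where 72.2% of CG gains and 42.5% of CG losses touched coding sequence, against 56.6% of windows. Inside the gene-poor bins, 40.5% of the CG DMRs on coding sequence were losses (15 of 37, interval 24.8% to 57.9%), against 64.2% of the others.

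CHH DMRs did not show this split. Coding sequence was touched by 20.8% of CHH losses and 19.6% of CHH gains, and the 1 kb upstream of a gene by 33.7% (interval 31.0% to 36.6%) and 38.9% (interval 35.7% to 42.1%), against 50.8% and 27.7% of windows. DMRs are somewhat longer than the windows, on average 365 bp for CG and 370 bp for CHH, so that any feature is a little easier to touch for a DMR. Outside the gene-poor bins, 46.0% of CHH losses and 50.2% of CHH gains touched the upstream 1 kb, against 30.9% of windows. Pseudogenes were touched by 14.3% of CHH losses (interval 12.3% to 16.5%) and 10.5% of CHH gains (interval 8.65% to 12.7%), against 8.29% of windows. Transposons are not annotated as features of their own in the reference used, so DMRs were not classed by transposon.

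**Figure D3:**
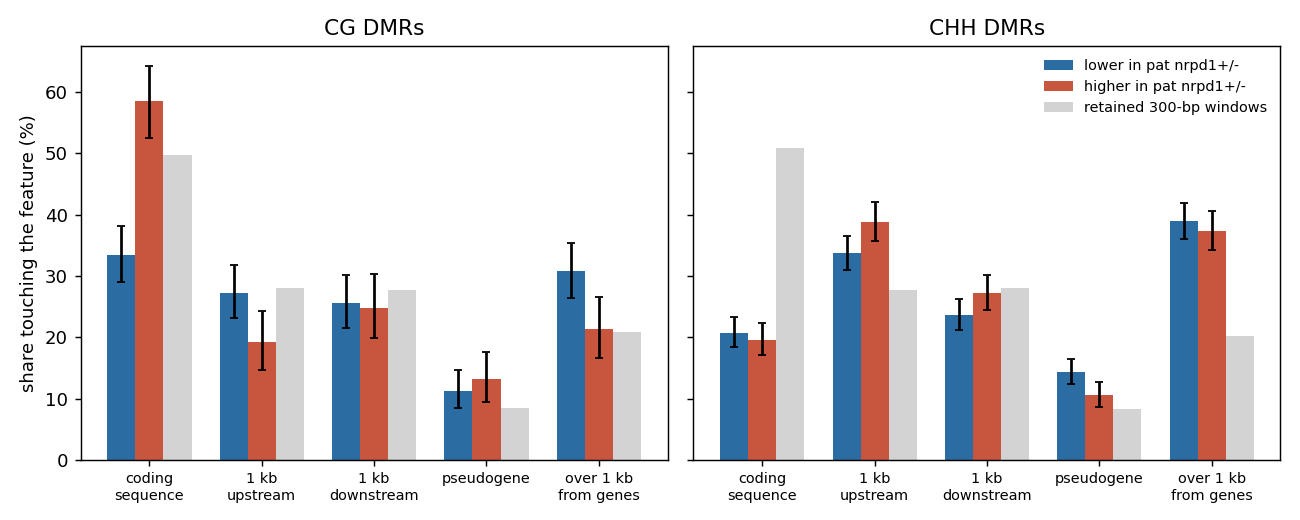
Share of DMRs that touch each annotated feature (vertical axis, percent, bars are exact 95% intervals over regions), for losses and gains in pat nrpd1+/-, beside the share of all retained 300-bp windows in grey. CG gains touch coding sequence more often than windows do (58.5% against 49.75%) and CG losses less often (33.4%), while CHH DMRs of both directions are low there and high upstream of genes.

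The profile along genes placed CHH DMRs at gene starts. Over 23067 genes of at least 1 kb, CHH losses and gains stood at 16.5 and 17.3 midpoints per Mb in the last 250 bp before the start, and at 12.4 and 13.8 per Mb in the first of 10 equal parts of the gene body. In the middle of the body, its parts 4 to 7, they fell to 3.10 and 1.49 per Mb, and in the last part they stood at 6.34 and 6.85. Inside the gene body, CG DMRs ran the other way. CG losses and gains stood at 0.838 and 0.671 per Mb in the first part of the body and at 3.03 and 3.61 in its middle. In the upstream 1 kb, CG losses stood at 4.02 per Mb (88 DMRs) and CG gains at 1.78 per Mb (39 DMRs). A DMR near several genes was counted at each of them.

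**Figure D4:**
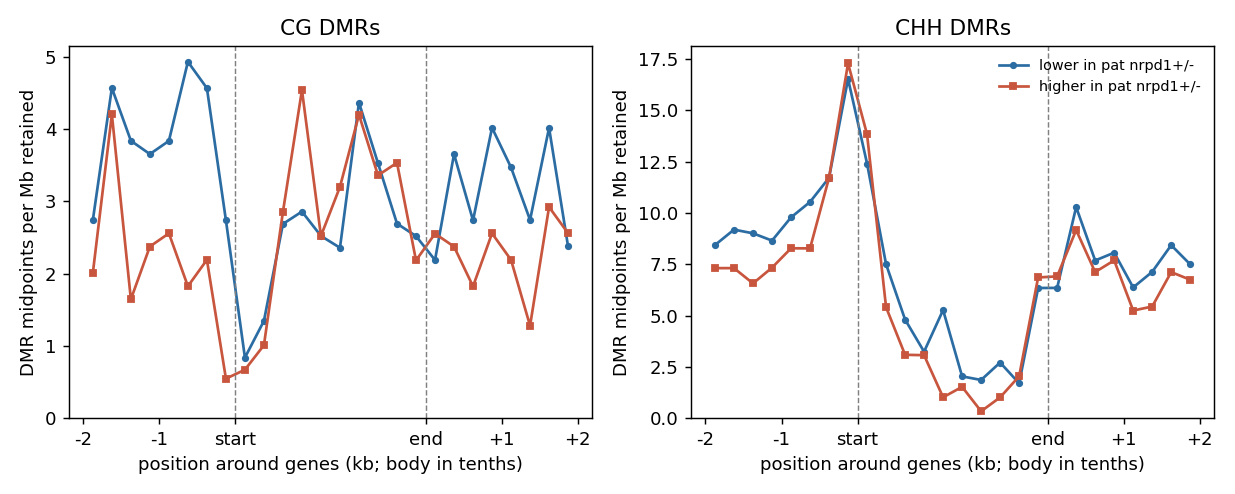
DMR midpoints per Mb of retained sequence (vertical axis) along protein-coding genes of at least 1 kb, from 2 kb upstream of the start to 2 kb downstream of the end in steps of 250 bp, with the gene body in 10 equal parts. CHH DMRs of both directions peak just before the start, at 16.5 losses and 17.3 gains per Mb, and CG losses are lowest in the first part of the body, at 0.838 per Mb.

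The base composition of the regions followed their context. CHH DMRs were poor in G and C, with a median of 31% for losses (quartiles 26.7% and 36.7%) and 30% for gains (quartiles 26% and 34.7%), against 36.3% in retained windows (quartiles 31.3% and 40.7%). CG losses had a median of 34.0% and CG gains 35.9%. CG DMRs did not hold more CG sites than other sequence, with a median of 3.33 cytosines in the CG context per 100 bp on both strands, in losses and in gains, against 4 in windows. By the paper's calling rule, a window needed a minimum number of shared cytosines and a minimum depth, so site density was partly fixed by the calling. With few CG cytosines in a region, few reads can set its value, and which regions had the reads to be called is not in the lists.

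Few DMRs lay close to another of the same context. The median gap to the next CG DMR was 85.6 kb and to the next CHH DMR 31.4 kb. Of the CG DMRs, 4.24% (30 of 707) had another within 1 kb, and of the CHH DMRs 7.78% (160 of 2056). For comparison, 1.62% of windows retained for CHH lay within 1 kb of a CG DMR, windows on the DMRs included. Of windows retained for CG, 4.70% lay within 1 kb of a CHH DMR. Each background thus uses the windows of the other context, and those for CG include variable CHH regions, where no CHH DMR could be listed. The contexts differed in what such neighbours did. All 15 neighbouring CG pairs within 1 kb had the same direction, 12 with losses and 3 with gains (100%, exact 95% interval 78.2% to 100%), whereas at gaps of 1 to 10 kb the share with the same direction was 48.7% (37 of 76, interval 37.0% to 60.4%). Of the neighbouring CHH pairs within 1 kb, 53.7% had the same direction (44 of 82, interval 42.3% to 64.8%), close to the 51.3% at 1 to 10 kb and the 51.2% at larger gaps.

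Taking both contexts together, 310 of the 2763 DMRs (11.2%) fell into 148 chains with gaps of at most 1 kb, and 136 of these chains had just 2 DMRs. The longest chain, with 5 DMRs over 1900 bp on chromosome 4 (from 1288801 to 1290700), held losses only, in the uncharacterized gene AT4G02910 and upstream of it. In its coding exon, a CG difference of -46.2 points overlapped a CHH difference of -16.2 points, and upstream, a CG difference of -34.1 points overlapped CHH differences of -14.7 and -11.7 points. The other 11 chains of more than 2 had 3 DMRs each. The longest CHH chains also had 3 DMRs, as in the pseudogene AT2G13175, with -12.6, -11.5 and -41.4 points, and not all of them went one way. Downstream of AT3G14670, differences of -13.9 and -36.8 points were followed within 100 bp by a gain of 30.9 points. Next to the pseudogene AT3G32901, a loss of -22.9 points was followed by gains of 25.7 and 22.0 points.

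Where the contexts met, CG methylation was lower in pat nrpd1+/- than in WT in every case. A CG DMR overlapped a CHH DMR by at least 1 bp in 30 pairs, formed by 29 CG and 30 CHH DMRs, and in all of them the CG difference was negative, between -82.7 and -30.03 points. Of the CG losses, 6.82% overlapped a CHH DMR (29 of 425, exact 95% interval 4.62% to 9.65%), and of the CG gains 0 of 282, which allows a share of up to 1.06% by the limit of 3 counts and up to 1.3% by the exact 95% interval. Among all retained 300-bp windows, 1.08% overlapped a CHH DMR, so a share of gains below that of windows was not shown. Since CHH DMRs were rare on coding sequence, where CG gains were frequent, the count was repeated without coding sequence. There, 28 of 283 CG losses (9.89%, interval 6.68% to 14.0%) and 0 of 117 CG gains overlapped a CHH DMR, which allows up to 2.56% by the limit of 3 counts and 3.10% by the exact interval, against 1.73% of windows. In the list of mat nrpd1+/- minus WT, 26 such pairs included 8 with both contexts higher and 3 with CG higher and CHH lower, among 309 CG gains. In the list of mat nrpd1+/- minus pat nrpd1+/-, CG was higher in pat nrpd1+/- at 510 DMRs. There, 45 pairs included 9 with both contexts higher in pat nrpd1+/- and 5 with CG higher and CHH lower in it. The absence of such pairs thus holds for the comparison with WT only. Each of these lists shares libraries with the others, and the differences between them were not tested.

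In 26 of the 30 overlapping pairs both contexts were lower in pat nrpd1+/- (86.7%, exact 95% interval 69.3% to 96.2%). The CHH losses in these pairs had a median of -13.5 points and reached -44.4 points. That value belonged to the pair with the largest summed difference, on chromosome 5, 1217 bp upstream of PLDALPHA3, a phospholipase D gene, with a CG difference of -61.4 points. The 100 bp that its regions shared (chr5:8809301-8809400) hold 0 CG sites, so the contexts met there only through the width of the windows. The pairs in AT1G09705 and upstream of UMAMIT41, printed above, shared 300 and 400 bp. In the other 4 pairs CG was lower and CHH higher. Besides the region printed above, these were -48.2 and 29.4 points at AT1G62895, an uncharacterized gene on chromosome 1, -36.3 and 32.8 points downstream of the RNA gene AT3G00580, and -54.5 and 14.97 points upstream of AT3G29260 on chromosome 3. The latter pairs shared only 100 bp each. The overlapping pairs were spread over the genome, with 5 to 8 on each chromosome, 8 in gene-poor bins and 5 in protein-coding genes.

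Close to each other but without overlap, CG gains and CHH DMRs did occur together. Within 1 kb there were 46 further pairs, of which 20 had both contexts lower, 11 both higher, 10 a CG loss with a CHH gain and 5 a CG gain with a CHH loss. Counting overlaps too, 12.5% of CG losses (53 of 425, exact 95% interval 9.48% to 16.0%) and 5.67% of CG gains (16 of 282, interval 3.28% to 9.05%) had a CHH DMR within 1 kb, against 4.70% of windows. CHH DMRs of the same direction were found within 1 kb of 3.90% of the CG gains (interval 1.96% to 6.87%), against 2.17% of windows.

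**Figure D5:**
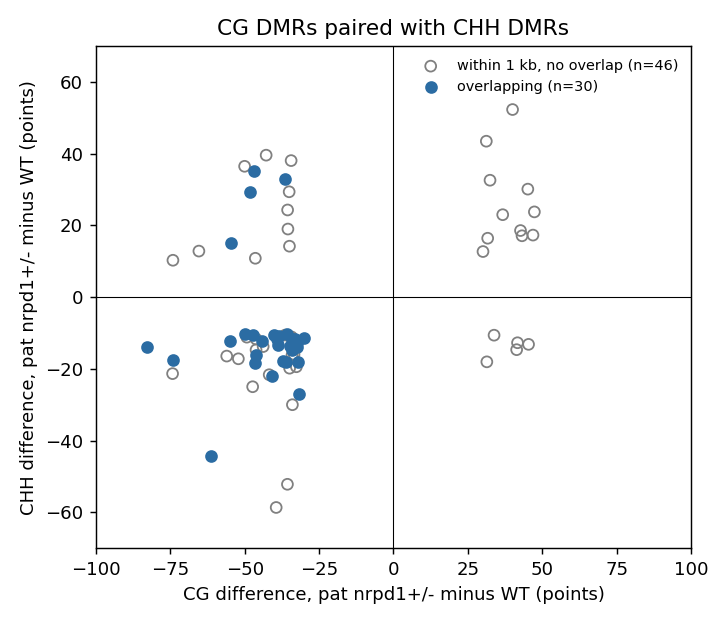
CG difference (horizontal axis) and CHH difference (vertical axis), both pat nrpd1+/- minus WT in percentage points, for the 30 overlapping pairs of DMRs (filled) and the 46 pairs within 1 kb without overlap (open). All filled points lie at negative CG differences, 26 with lower and 4 with higher CHH methylation.

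Genes near DMRs were counted among 25958 protein-coding genes of which at least 50% of the gene with 1 kb on each side was retained. Of these, 2239 genes (8.63%) had a DMR in the gene or within 1 kb. For CG losses the share was 1.44%, for CG gains 1.12%, for CHH losses 3.44% and for CHH gains 3.05%. Nearly all, 2079 genes, had 1 DMR, 151 had 2 and 9 had 3 or more. Both contexts were found at 69 genes, with only losses at 31, only gains at 12 and both directions at 26. By the size of the CG difference, the first of these was EXPA15, which encodes an expansin of the cell wall, with a CG difference of -81.4 points 929 bp upstream and a CHH difference of -12.1 points in a coding exon. AT5G28237, annotated as a gene of a pyridoxal phosphate-dependent enzyme, had -74.1 points in CG and 10.3 points in CHH, both over exons. AT3G44440, an uncharacterized gene, had -56.0 points in CG in a coding exon and -16.4 points in CHH 344 bp downstream. AT3G32920, annotated as a P-loop hydrolase gene, had gains in both contexts, of 48.4 and 45.1 points in CG and 30.1 points in CHH.

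Genes of the methylation pathways, the Polycomb group, imprinting and endosperm development were read from lists of 84 genes in all, of which 83 were retained. A DMR within 1 kb was found at 12 of them, beside a share of 8.63% over all protein-coding genes, and counts this small do not set the lists apart. In RNA-directed DNA methylation, 3 of 25 genes were near a DMR, and NRPD1 itself was not among them. DCL3, which cuts the precursors of small interfering RNAs, had a CG gain of 33.9 points in a coding exon. SUVH9, which helps to recruit Pol V, had a CG gain of 30.9 points in a coding exon and a CHH gain of 20.1 points 296 bp upstream. KTF1, which binds Pol V transcripts and Argonaute, had a CG loss of -35.0 points in a coding exon. CMT3, the CHG methyltransferase, had a CG loss of -40.1 points in a coding exon. IDM1, a histone acetyltransferase that aids DNA demethylation, had a CHH gain of 13.6 points 911 bp downstream.

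Among Polycomb and imprinted genes, EMF2, a subunit of a Polycomb repressive complex, had a CG loss of -32.2 points in a coding exon. MPC, which is expressed from the maternal allele in endosperm, had one of -31.2 points, also in a coding exon. YUC10, an auxin biosynthesis gene expressed from the paternal allele, had a CHH loss of -22.5 points over an untranslated exon. Of the 20 genes of endosperm development and sugar supply, 3 had CHH losses, beside 3.44% of all protein-coding genes, and 1 had a CG gain, beside 1.12%. AGL62, which holds back the cellularization of endosperm, had -11.4 points and PHE2, a MADS-box gene with a close copy in PHE1, had -20.9 points, both over untranslated exons. SUC2, a sucrose transporter gene, had -10.3 points, and SWEET11, a sugar exporter gene, had a CG gain of 34.6 points 665 bp downstream. Each of the 12 genes apart from SUVH9 had a single DMR.

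Gene families were matched by the words of their annotation. Disease resistance genes mostly encode immune receptors with nucleotide-binding and leucine-rich repeat domains. The words used also match some other genes, such as dirigent-like and NDR1/HIN1-like genes, ZAP1 and ATBRXL2. The shares below are thus not those of immune receptors alone, least of all for CHH. The matched genes stood at 16.2% with a DMR within 1 kb (40 of 247, exact 95% interval 11.8% to 21.4%). CG gains were found at 7.29% of them (interval 4.38% to 11.3%), against 1.12% of all protein-coding genes, and CG losses at 4.86% (interval 2.54% to 8.33%), against 1.44%, while CHH losses stood at 4.05% and CHH gains at 2.43%. These genes are longer than others, with a median of 3298 bp against 2086 bp, and many lie in tandem, so that a DMR can count at more than one of them. Receptor kinase genes, with a median length of 3050 bp, stood at 13.2% (interval 9.30% to 17.9%), with CG gains at 1.94% and CHH losses at 6.20%. F-box genes stood at 7.03%, cytochrome P450 genes at 7.47%, defensin and cysteine-rich genes at 8.18% and MADS-box genes at 13.6% (17 of 125, interval 8.13% to 20.9%). Genes with transposon words in their annotation stood at 12.9% (11 of 85, interval 6.64% to 22.0%). Of the annotated pseudogenes, 18.5% had a DMR within 1 kb (707 of 3815), and of the tRNA genes 2.17% (11 of 506). Pseudogenes lie largely in gene-poor bins, where DMRs were denser. They were touched by 8.49% of all windows retained for CG and by 2.91% of those outside these bins. The pseudogene share was not compared with other sequence of the same bins.

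Of the 20 CG gains at the genes matched as resistance genes, ZAP1 among them, 19 lay in a gene and 18 touched coding sequence. Of the 14 CG losses, 9 lay in a gene and 5 touched coding sequence. Over all CG DMRs, 58.5% of gains and 33.4% of losses touched coding sequence, and the difference between resistance genes and the whole list was not tested. The gains had a median of 42.3 points and reached 73.5 points. A run of them was found at the RPP4 and RPP5 cluster on chromosome 4, a tandem array of receptor genes of the TIR class that includes the downy mildew resistance genes RPP4 and RPP5 and SNC1. This cluster is described because its values were seen to stand out. From RPP4 to AT4G16960, 62.6 kb (chromosome 4, 9488466 to 9551028) held 9 CG DMRs. Stretches of this length that start at a CG DMR held a median of 1, and one on chromosome 3, from base 15751101, held 7. CG losses of -39.4 and -36.3 points lay at SNC1. The 7 other CG DMRs were gains, of 33.8 points in the RNA gene AT4G16892, 46.6 points in AT4G16920, 73.5 points in AT4G16930, 65 and 40.8 points in AT4G16940, 50 points in AT4G16957 beside RPP5 and 33.5 points in AT4G16960. The only CHH DMR was a loss of -17.1 points in RPP4.

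In the list of mat nrpd1+/- minus WT, 0 of these 9 CG regions were listed, although the sequence was retained there. The paper reports that few CG sites were shared between the heterozygotes. The share over all CG DMRs was not counted here, so this absence is not shown to be particular to the cluster. In the list of mat nrpd1+/- minus pat nrpd1+/-, SNC1 had 45.9 and 47.5 points and AT4G16930 had -41.9 points, and 2 of the 9 regions were not listed. Both comparisons use the same pat nrpd1+/- libraries. None of the 9 regions lay within 1 kb of a CG region that varied between replicates. Only 2 of all 707 CG DMRs and 0.629% of retained windows did, so this absence says nothing about how well these values repeat. The genes of this array are similar in sequence, and reads of Ler and Col chromosomes were aligned to the Col reference, so how reads were divided among the copies is uncertain, and its part in these values was not tested. Another resistance gene region, on chromosome 5, had a CG loss of -65.4 points and a gain of 61.3 points within AT5G45230 and the longest CG gain of the list, 700 bp with 40.4 points, in the nearby AT5G45240.

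The remaining regions of largest listed difference were mostly intergenic. CG losses of -86.0 and -84.6 points lay 403 bp downstream of AT3G45480, a RING-type gene, and in the RNA gene AT5G05345. CG gains of 86.3 and 84.3 points lay in a coding exon of AT3G61010 on chromosome 3 and near the RNA gene AT4G05025. At the first of these losses the difference in mat nrpd1+/- minus pat nrpd1+/- was 100 points, and mat nrpd1+/- was not listed against WT. CHH losses of -63.9 and -60.1 points lay upstream of CYP716A2, a cytochrome P450 gene, and 65 bp upstream of AT1G52000, a lectin gene, and CHH gains of 77.0 and 62.1 points lay in gene-poor bins upstream of AT1G43605 and AT4G06598. The strongest CHH regions were also listed in mat nrpd1+/- minus WT where they were retained. The loss upstream of ZDS stood at -27.9 points there, that upstream of CYP716A2 at -35.5 points, and the gains at AT1G36305, AT1G43605 and AT4G06598 at 72.4, 41.5 and 14.2 points. Of the strongest 3 CG losses and 3 CG gains, 0 were listed in that comparison. The paper reports few shared CG sites between the heterozygotes and a larger shared part of CHH DMRs. Shares over all DMRs were not counted here, so this contrast is not shown to be particular to the strongest regions. The same WT libraries enter both comparisons. The longest DMRs were a CG loss of 1100 bp at AT1G75945 (-32.3 points) and a CHH loss of 1000 bp upstream of AT3G29300 (-15.3 points), and the longest CHH gain, 800 bp with 49.6 points, lay in AT2G22590, a glycosyltransferase gene.

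Replicate spread entered the lists only through regions that varied between the 2 replicates of a genotype, which were left out. CHH DMRs often bordered on them. Of the CHH DMRs, 25.4% lay within 1 kb of a CHH region that varied in WT or pat nrpd1+/- (522 of 2056, exact 95% interval 23.5% to 27.3%), against 14.3% of retained windows, and the shares were alike for losses (26%) and gains (24.7%). Of the 3 largest CHH losses, 2 were among them, and of the 3 largest CHH gains, also 2. Only 2 of 707 CG DMRs (0.283%) lay within 1 kb of a variable CG region, against 0.629% of retained windows. Variable CG regions were few, 131 in WT and 228 in pat nrpd1+/-, against 5254 and 5838 for CHH. The low CG count is therefore no measure of how well CG values repeat. CHH variable regions, which do not enter the CG filter, were overlapped by 9.88% of CG losses (42 of 425, interval 7.22% to 13.1%) and 6.74% of CG gains (19 of 282, interval 4.11% to 10.3%), against 4.83% of windows. The median fraction of maternal reads around the DMRs was nearly the same in both genotypes, and stretches with an unusual fraction had been left out beforehand. It was 0.633 in WT and 0.636 in pat nrpd1+/- at CG losses and 0.632 and 0.636 at CG gains. At CHH losses it was 0.633 and 0.639, and at CHH gains 0.634 and 0.639. Around single CHH losses, the difference pat nrpd1+/- minus WT ranged from -0.0749 to 0.0801. Upstream of CYP716A2 the fraction was 0.623 in WT and 0.688 in pat nrpd1+/-. The deposited fractions are given for stretches with a median length of 208 kb in WT, so they do not resolve single DMRs. The part of either measure in the differences was not tested.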

How the data were processed

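Reads from bisulfite-treated endosperm DNA were trimmed by the authors with Trim Galore, aligned to TAIR10 with Bismark and summed in overlapping 300-bp windows. Replicates were pooled, windows past 30 points (CG) or 10 points (CHH) were called and merged, and regions with an unusual maternal share or a difference between replicates were excluded. The deposited differences are percentage points, and the maternal share was deposited as a fraction of reads. PCR reads are not independent molecules.

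Here, 707 of 707 CG and 2056 of 2056 CHH DMRs lay inside sequence that passed the filters of both genotypes (108.4 and 105.0 Mb), which served as background in 100-bp steps or 300-bp windows. In the CHH list the difference was read from the column after the length, since the column that the header names holds the length. Reads of both accessions were aligned to the Col reference. Genes came from RefSeq TAIR10.1, with the deposited coordinates converted to count from 1. Intervals are exact 95% Clopper-Pearson intervals (scipy 1.17.1, Python 3.11.15, pandas 2.3.3, numpy 2.4.6) over regions, and neighbouring regions are not independent. With 1 pooled value per region, no test between genotypes was possible. Named regions were the 3 largest differences and the longest DMR of each context and direction, the longest chains, overlapping pairs of opposite direction and those of largest summed difference. Named genes were those of the lists and those with both contexts (largest CG difference first) or at least 3 DMRs, and the RPP4 and RPP5 cluster was added after its values were seen. Members and lists were chosen with earlier results of these data known. CHG methylation was not analysed here. Other thresholds, gaps and distances were tried as alternatives. Interval counting was tested on simulated regions.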

Additional observations from a re-analysis of the deposited data

How the results depend on the processing

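Stricter differences (40 points CG, 15 points CHH), merged regions only and sequence outside gene-poor bins were each tried. This was done for hypomethylated shares, chains, nearness to variable regions, co-occurrence, directions of overlapping pairs and genes with a DMR. The density in gene-poor bins was tried with stricter differences, merged regions and a gene-poor limit of 30%. Shares touching coding sequence were repeated only by gene-poor bins, and gene profiles, neighbour directions and family shares were not repeated. The hypomethylated share of CHH DMRs turned to 45.7% at the stricter difference, but was 55.2% in single windows at that difference, an alternative chosen after seeing the data. The CG share was 65.4% in merged regions. Genes with a DMR fell to 945 (stricter), 1014 (merged) and 1092 (DMR in the gene). CG DMRs with a CHH DMR were 2.555% (stricter) and 9.76% (within 1 kb). CG DMRs in chains were 2.10% (merged) and 14.3% (gaps to 5 kb), and CHH DMRs 4.57% (stricter), 5.08% (merged), 5.35% (outside gene-poor bins) and 25% (5 kb). CHH DMRs near a variable region were 27.5% (stricter), 20.1% (outside gene-poor bins) and 15.8% (500 bp), and CG DMRs 0% (stricter). Apart from the limits set by fewer regions or other distances, the cause was not tested. The other 30 of 47 values kept their direction and stayed close to the reported value, within its interval for shares and within 1.5 times for counts. No paired analysis was possible because the replicates were pooled before deposit and each region has 1 value, and no replicate could be left out for the same reason. Depth per sample is unknown, so a region missing from a list may have lacked reads.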
